A study of Mus musculus with 9 samples.

Results

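The genes described here are 7 genes of cholesterol synthesis and its control, Hmgcs1, Idi1, Sqle, Lss, Cyp51, Insig1 and Srebf2, measured in mouse brain after injection of a baculoviral vector. They were chosen by name, as every probe set whose single gene symbol in the platform annotation is one of the 7, which gave 17 of the 34945 probe sets with a single symbol and 7 of 18193 genes. A probe set is a group of short probes on the array that together read 1 transcript, and 14 of the 17 were bright enough to test, with 3 or more arrays on which they exceeded that array's 40th percentile. The 7 hold enzymes and regulators but no uptake receptor.

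All mice were adult BALB/c males with an intact immune system, 3 to a group. HS mice were given BV-HSVtk, a baculovirus carrying a herpes simplex thymidine kinase gene, from a preparation cleaned only by high-speed centrifugation (HS). MC+HS mice were given the same vector from a preparation that also went through membrane chromatography (MC). The dose in both groups was 100000000 viral particles in 10 µl into the striatum on either side. Mock mice were injected with Sf9 insect cell medium that held no baculovirus and had gone through the MC+HS purification, so HS and mock mice differed in both the virus and the purification, and MC+HS and mock mice in the virus. Tissue near the injection sites was taken 2 days later. RNA from each mouse went on 1 array, and the numbers of a group's arrays name separate animals.

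Animal cells build cholesterol from acetyl units through the mevalonate pathway, and the brain makes nearly all of its own, since plasma lipoproteins do not cross the blood-brain barrier. Oligodendrocytes make it for myelin, and astrocytes make and export it on apolipoprotein E particles. The transcription factor SREBP2, the product of Srebf2, switches on the whole pathway when membrane sterol is low, and INSIG proteins hold it back in the endoplasmic reticulum when sterol is high. The genes thus often move as 1 unit.

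Values are log2(signal + 16) after the median of each array was moved to a common value, and they compare arrays for 1 probe set, not probe sets with each other. The HS replicate 1 array was unlike the remaining 8. It correlated with them at a median of 0.757, against 0.956 to 0.979 for each of those, and its ratio of the 3′ to the 5′ Gapdh control was 2.00, against 0.865 to 0.932. Its log2 values had an SD of 1.32, against 1.61 to 1.70. Lss 1420014_at read 8.48 on it and 5.72 to 6.38 on the other 8, and Cyp51 1422534_at read 7.86 on it and 5.79 to 6.48 elsewhere. These 2 and Hmgcs1 1441536_at, at 5.25 to 6.70 on the 9 arrays, are the 3 probe sets that were not tested. The 14 probe sets are therefore given from a fit of all 9 arrays and from a fit of 8 arrays without HS replicate 1, in which HS has 2 mice. Over all 28257 probe sets tested, the 95% interval of a difference reached a median of 0.60 log2 units to either side with 9 arrays. With 8 arrays it reached 0.33 where HS was compared and 0.29 between MC+HS and mock. The p-values set each difference against the spread between these mice, which limma pools over the groups and moderates over all probe sets.

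The promoters are shown for the members whose window holds a sterol regulatory element, the site that SREBP proteins bind, or a near match to it. Each window is the 250 bases before the RefSeq start of the gene in GRCm38.p6, written on the gene's own strand. Capitals mark 9-base sites that match TCACNCCAC, read on both strands, with at most 1 mismatch.
Hmgcs1 promoter, chr13:119690101-119690350, plus strand: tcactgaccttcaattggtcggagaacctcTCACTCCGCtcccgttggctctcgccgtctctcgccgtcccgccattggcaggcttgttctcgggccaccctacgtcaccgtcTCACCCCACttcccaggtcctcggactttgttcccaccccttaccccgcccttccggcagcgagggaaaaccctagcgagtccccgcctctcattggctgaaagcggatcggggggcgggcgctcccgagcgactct
Cyp51 promoter, chr5:4104698-4104947, minus strand: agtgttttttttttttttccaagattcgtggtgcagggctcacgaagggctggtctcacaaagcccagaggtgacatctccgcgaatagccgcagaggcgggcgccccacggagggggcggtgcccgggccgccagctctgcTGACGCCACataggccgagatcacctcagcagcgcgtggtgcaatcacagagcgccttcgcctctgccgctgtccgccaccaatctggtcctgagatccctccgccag
Insig1 promoter, chr5:28071162-28071411, plus strand: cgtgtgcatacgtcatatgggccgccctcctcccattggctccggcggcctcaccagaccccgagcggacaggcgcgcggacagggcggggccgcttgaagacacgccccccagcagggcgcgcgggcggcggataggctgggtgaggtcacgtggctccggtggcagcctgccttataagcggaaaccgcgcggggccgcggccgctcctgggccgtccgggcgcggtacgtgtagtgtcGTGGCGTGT
Srebf2 promoter, chr15:82147019-82147268, plus strand: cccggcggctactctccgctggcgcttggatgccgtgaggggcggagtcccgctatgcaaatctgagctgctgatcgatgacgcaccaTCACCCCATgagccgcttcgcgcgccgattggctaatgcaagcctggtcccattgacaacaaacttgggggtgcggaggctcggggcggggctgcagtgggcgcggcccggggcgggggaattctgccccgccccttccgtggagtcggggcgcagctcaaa
Sqle had no promoter entry. Of the other 6 members, Hmgcs1 alone held an exact match, TCACCCCAC, at bases 137 to 129 before its start, while 1.05% of the 32851 windows of all genes held one. With 1 mismatch allowed, 4 of the 6 held a site, against 20.7% of all windows. None of 16 windows of 13 other cholesterol enzymes held the exact letters, and 5 of the 16 held a near match. CCAAT, the letters read by the factor NF-Y, was found on either strand in 6 of 6 members and 33.8% of all windows. GGGCGG, read by Sp1, was found in 6 of 6 and 32.7%. Of the 16 windows of the other cholesterol enzymes, 12 held CCAAT and 12 held GGGCGG. These are matches of letters and were not measured as binding here.

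Hmgcs1 encodes the cytosolic synthase that makes HMG-CoA, the entry step of the pathway, and it was the only member with a called change in the fits above. Its probe set 1433446_at read 8.57, 10.54 and 10.41 in HS brains, 10.36, 10.14 and 10.30 in MC+HS brains, and 10.84, 10.94 and 10.83 in mock brains. Every vector array lay below every mock array, and HS replicate 1 lay far below all others. Probe set 1433444_at read 9.05, 11.34 and 11.27 in HS, 11.21, 11.22 and 11.30 in MC+HS, and 11.64, 11.62 and 11.59 in mock brains. Probe set 1433445_x_at read 10.68, 11.45 and 11.39 in HS, 11.33, 11.43 and 11.46 in MC+HS, and 11.71, 11.74 and 11.74 in mock brains. Both repeat the order of the first, with mock arrays close to each other. Probe set 1433443_a_at read 12.57, 12.84 and 12.88 in HS, 12.88, 12.56 and 12.64 in MC+HS, and 13.03, 13.00 and 12.90 in mock brains, so that mock again lay above both vector groups, by a small margin. The 4 probe sets read 1 gene in the same RNA and are not separate evidence. The _x_at set, like Lss 1420013_s_at below, can also bind related transcripts.

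In the 8-array fit, Hmgcs1 fell in MC+HS against mock brains by limma's test, by 0.60 ± 0.09 on the log2 scale at 1433446_at (adjusted p = 0.00418, SE, n = 3 each), or to 0.658 of the mock level. Probe set 1433444_at fell by 0.37 ± 0.08 (limma adjusted p = 0.0241) and 1433445_x_at fell by 0.33 ± 0.08 (limma adjusted p = 0.0476). Probe set 1433443_a_at had a log2 difference of -0.28 ± 0.09 (limma adjusted p = 0.149). These 3 were the only called ones of the 14 member probe sets, where 0.828% of all probe sets were called lower in that comparison. At an unadjusted p under 0.05, 6 of 14 were lower, where 6.92% of all probe sets were. All tested Hmgcs1 probe sets were among the 6, beside Sqle and Lss 1426913_at, so the 6 are not separate genes. The call at 1433446_at was kept when any 1 of the 8 remaining arrays was left out, with limma adjusted p of 0.00572 to 0.0266. The call at 1433444_at was kept only without HS replicate 3 or without MC+HS replicate 1, and reached an adjusted p of 0.111 without mock replicate 1. The call at 1433445_x_at was kept in 0 of the 8 cases, with limma adjusted p of 0.0559 to 0.149. Without scaling between arrays 0 of 14 were called, and 1433446_at stood at -0.58 with a limma adjusted p of 0.258. With all 9 arrays the differences are the same, but the shared spread takes in HS replicate 1, so that the error at 1433446_at became 0.47, its limma adjusted p was 0.9999, and 0 of 14 member probe sets were called, where 0.0248% of all probe sets were called lower. At an unadjusted p under 0.05, 0 of 14 were lower, where 1.76% of all probe sets were.

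In HS against mock brains no member probe set was called in either fit. Without HS replicate 1, Hmgcs1 differed by -0.39 ± 0.11 at 1433446_at (limma adjusted p = 0.0833, HS n = 2), by -0.31 ± 0.09 at 1433444_at (0.0948) and by -0.32 ± 0.09 at 1433445_x_at (0.0915), where 0.354% of all probe sets were called lower. These 3 and Lss 1420013_s_at, 4 of 14, passed at an unadjusted p under 0.05, where 4.28% of all probe sets were lower. With 9 arrays the differences at 1433446_at and 1433444_at were -1.03 ± 0.47 and -1.06 ± 0.54 (limma adjusted p = 0.635 for both), and 0.0283% of all probe sets were called lower. At an unadjusted p under 0.05, 0 of 14 were lower in that fit, where 3.25% of all probe sets were. The sign against mock also depended on the scaling, because HS replicate 3 had the highest median signal and was moved by 0.66. Without any scaling and without HS replicate 1, the median of all probe sets stood at 0.47 and 1433446_at at 0.05. Relative to the median of all probe sets it was -0.42 with or without scaling, since a shift of whole arrays cannot alter that value. After quantile normalization it was -0.45.

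**Figure D1:**
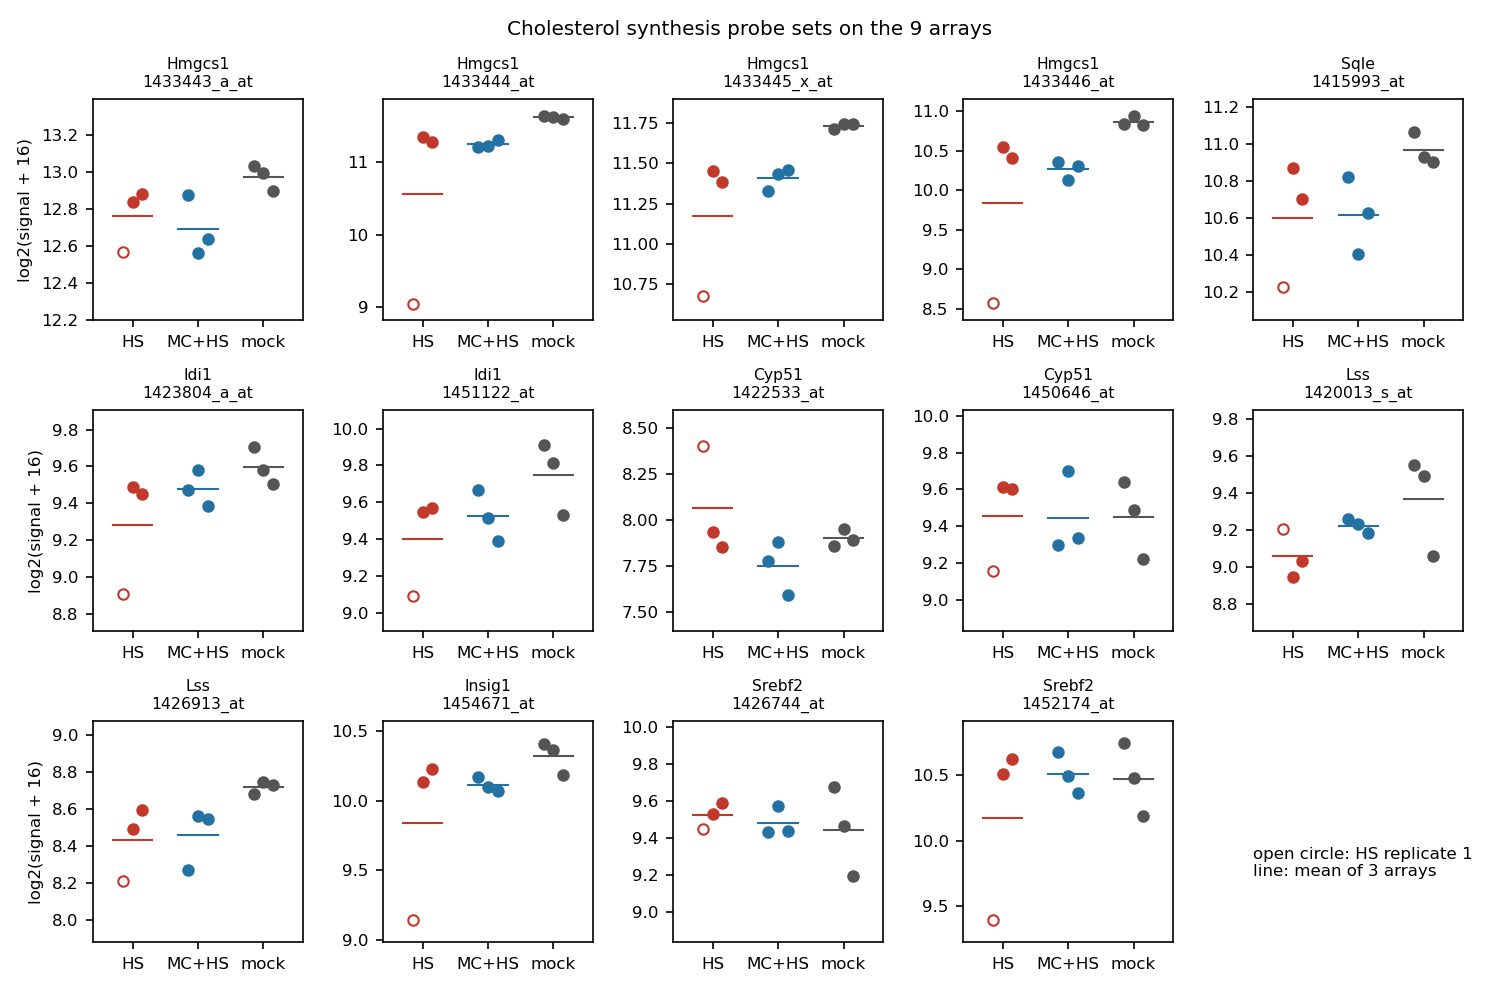
Level of the 14 tested probe sets on each array, as log2(signal + 16) on the y axis, for HS, MC+HS and mock brains; points are mice, lines are means of 3 arrays, and the open circle is HS replicate 1. All 4 Hmgcs1 probe sets lie below mock on every vector array, while both Srebf2 probe sets overlap mock.

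Idi1 encodes the isomerase that makes the activated isoprene units used in chain building. Its probe set 1451122_at read 9.09, 9.55 and 9.57 in HS, 9.67, 9.52 and 9.39 in MC+HS, and 9.91, 9.81 and 9.53 in mock brains. Mock replicate 3 lay among the vector arrays, so the groups overlapped. Probe set 1423804_a_at spanned 8.91 to 9.49 in HS, 9.38 to 9.58 in MC+HS, and 9.50 to 9.71 in mock brains. The 8-array differences from mock were -0.19 ± 0.13 in HS and -0.23 ± 0.12 in MC+HS at 1451122_at, and -0.13 ± 0.11 and -0.12 ± 0.10 at 1423804_a_at, and limma's adjusted p ran between 0.447 and 0.669. With all 9 arrays the HS differences were -0.35 ± 0.21 and -0.31 ± 0.21 (limma adjusted p = 0.635 for both). For every member the MC+HS difference from mock is the same in both fits and its limma adjusted p with 9 arrays was 0.9999.

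Sqle, Lss and Cyp51 carry the sterol end of the pathway, where squalene is oxidised, closed into lanosterol and demethylated. Sqle, squalene epoxidase, read 10.23, 10.87 and 10.70 in HS, 10.83, 10.40 and 10.63 in MC+HS, and 11.07, 10.93 and 10.90 in mock brains. All vector arrays lay below all mock arrays, yet HS replicate 2 and MC+HS replicate 1 came within 0.1 of the lowest mock array. Its 8-array difference from mock was -0.18 ± 0.13 in HS (limma adjusted p = 0.589) and -0.35 ± 0.12 in MC+HS (limma adjusted p = 0.167). HS replicate 1 moved the HS difference to -0.37 ± 0.25 (limma adjusted p = 0.635, 9 arrays).

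Lss, lanosterol synthase, had a pair of tested probe sets, of which 1 separated the vector groups from mock. Probe set 1426913_at read 8.21, 8.49 and 8.59 in HS, 8.27, 8.56 and 8.55 in MC+HS, and 8.68, 8.74 and 8.73 in mock brains, with no overlap. Probe set 1420013_s_at read 9.20, 8.95 and 9.03 in HS, 9.26, 9.23 and 9.18 in MC+HS, and 9.55, 9.49 and 9.06 in mock brains, where mock replicate 3 lay below the MC+HS arrays. With 8 arrays, 1420013_s_at differed from mock by -0.38 ± 0.15 in HS (limma adjusted p = 0.258) and by -0.14 ± 0.13 in MC+HS (limma adjusted p = 0.698). With mock replicate 3 left out too, its HS difference was -0.53 and limma's adjusted p was 0.0310, so this HS value turns on 1 mock mouse. Probe set 1426913_at differed by -0.18 ± 0.12 in HS and -0.26 ± 0.11 in MC+HS (limma adjusted p = 0.583 and 0.320). The 9-array HS differences were -0.31 ± 0.19 at 1420013_s_at and -0.29 ± 0.16 at 1426913_at (limma adjusted p = 0.635 for both).

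Cyp51, lanosterol demethylase, showed no call and no common direction. Its probe set 1450646_at read 9.16, 9.62 and 9.60 in HS, 9.30, 9.70 and 9.33 in MC+HS, and 9.64, 9.49 and 9.22 in mock brains, with all 3 groups overlapping. The interval of its MC+HS difference without HS replicate 1 ran between -0.31 and 0.30. Its HS difference was 0.16 ± 0.15 with 8 arrays and 0.01 ± 0.22 with 9 (limma adjusted p = 0.711 and 0.988). Probe set 1422533_at read 8.40 on HS replicate 1 and 7.59 to 7.95 on the other 8 arrays, so that HS replicate 1 was the highest of the 9. It differed from mock by 0.16 ± 0.17 in HS with 9 arrays and by -0.01 ± 0.14 with 8 (limma adjusted p = 0.666 and 0.990), and by -0.15 ± 0.12 in MC+HS with 8 (limma adjusted p = 0.651).

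Insig1 encodes the sterol-regulated anchor that retains the SREBP complex. It read 9.15, 10.14 and 10.23 in HS, 10.17, 10.10 and 10.07 in MC+HS, and 10.41, 10.36 and 10.18 in mock brains. The MC+HS arrays all lay just below the lowest mock array, and HS replicate 3 lay above it. Its 8-array difference from mock was -0.13 ± 0.11 in HS (limma adjusted p = 0.636) and -0.21 ± 0.09 in MC+HS (limma adjusted p = 0.361). HS replicate 1 read lowest of all 9, and with it the HS difference was -0.48 ± 0.30 (limma adjusted p = 0.635).

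Srebf2, the gene of the pathway's activator, read within the range of mock mice on all vector arrays but HS replicate 1 at 1 probe set. Probe set 1452174_at read 9.39, 10.51 and 10.63 in HS, 10.68, 10.49 and 10.37 in MC+HS, and 10.75, 10.48 and 10.19 in mock brains. Probe set 1426744_at spanned 9.45 to 9.59 in HS, 9.43 to 9.57 in MC+HS, and 9.19 to 9.68 in mock brains, and its mock mice took in every vector array. With 8 arrays both probe sets had a log2 difference of 0.04 in MC+HS against mock (limma adjusted p = 0.936 and 0.940), with 95% intervals of -0.27 to 0.35 at 1452174_at and -0.24 to 0.31 at 1426744_at. In HS against mock, 1452174_at stood at 0.10 ± 0.16 with 8 arrays and at -0.29 ± 0.35 with 9 (limma adjusted p = 0.837 and 0.693), so its sign turned with HS replicate 1.

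Counted together, 12 of the 14 probe sets were lower in MC+HS than in mock brains in sign, where 53.7% of all probe sets were lower. For HS it was 11 of 14 in both fits, where 73.5% of all probe sets were lower with 9 arrays and 44.6% without HS replicate 1, but 0 of 14 in the 8-array fit without scaling. Relative to the median of all probe sets it was 11 of 14 in that fit with and without scaling, a count that a shift of whole arrays cannot alter. In the 9-array fit, 8 of 14 were lower in sign without scaling and 8 of 14 after quantile normalization, and after quantile normalization 5 of 14 lay below the median of all probe sets. The groups did not overlap, with mock above, for 7 of 14 in MC+HS against mock (9.84% of all probe sets). They did not overlap for 7 of 14 in HS against mock with 9 arrays (10.1%) and 8 of 14 without HS replicate 1 (13.6%), and 4 of the probe sets are those of Hmgcs1 each time. With 1 probe set for each gene, the one with the highest mean, the median difference of the 7 genes from mock was -0.21 in MC+HS, where the median of all 13331 genes was 0.01. In HS it was -0.31 with 9 arrays, where all genes had -0.23, and -0.13 without HS replicate 1, where all genes had 0.05. The comparisons with mock share the same 3 mock mice, and in bulk tissue fewer cells of a type and less RNA per cell cannot be told apart.

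**Figure D2:**
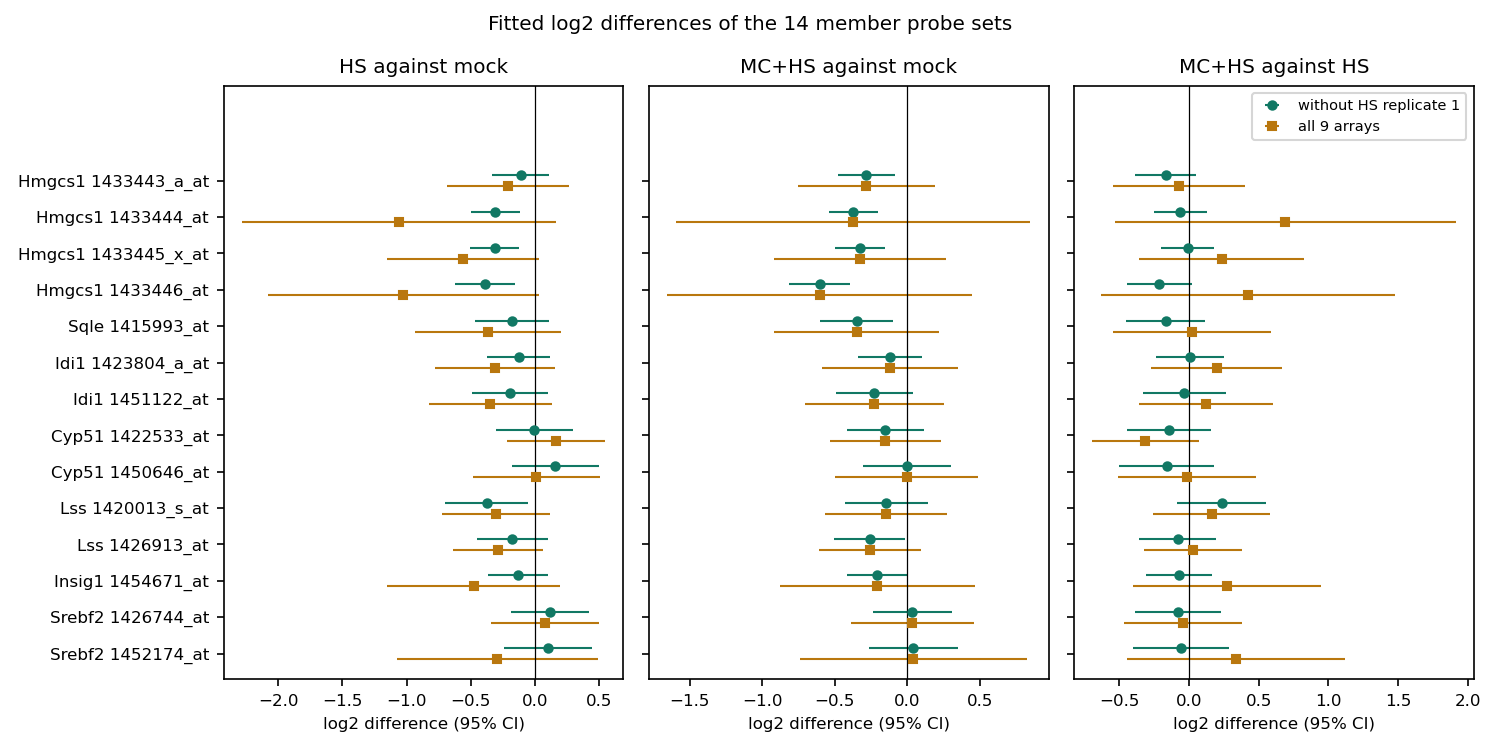
Fitted log2 difference of each tested probe set on the x axis, with 95% confidence intervals as bars, in a panel each for HS and for MC+HS against mock and for MC+HS against HS; green circles leave out HS replicate 1 and orange squares use all 9 arrays. In MC+HS against mock the intervals of all 4 Hmgcs1 probe sets lie below 0 without that array and span 0 with it.

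Between MC+HS and HS brains, which tests the purification under the same vector, no member was called. With 9 arrays the 14 limma adjusted p ran between 0.728 and 0.984, and without HS replicate 1 between 0.687 and 0.990. At an unadjusted p under 0.05, 0 of 14 were lower and 0 of 14 were higher in either fit. At that p 1.25% of all probe sets were lower with 9 arrays and 5.43% with 8, and the share higher is not given. Of all probe sets 0% were called lower in either fit and 0.00354% higher without HS replicate 1. The sign turned with the array, since 4 of 14 were lower in MC+HS than in HS with 9 arrays (26.6% of all probe sets) and 12 of 14 without HS replicate 1 (62.7%). Quantile normalization gave 12 of 14 and 7 of 14 instead, and no scaling 11 of 14 and 14 of 14. Hmgcs1 1433446_at stood at 0.42 ± 0.47 in the first fit and at -0.21 ± 0.11 in the second, with a 95% interval of -0.45 to 0.02 in the second. In the 8-array fit the MC+HS and HS arrays did not overlap for that probe set, which was lower in MC+HS (16.7% of all probe sets), and for Lss 1420013_s_at, which was higher (7.59%). The intervals do not show that the preparations act alike.

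The other genes of sterol synthesis, uptake and removal place the 7 in the pathway. With 8 arrays limma called 3.29% of all probe sets in HS and 3.32% in MC+HS as different from mock. With 9 arrays these shares were 0.775% and 0.58%. Between the vector groups the shares were 0.00354% with 8 arrays and 0% with 9. Of 17 other synthesis enzymes 14 were measured, and 0 were called in any comparison or fit by limma, which does not set these enzymes apart. In the 8-array fit their median was -0.13 in MC+HS against mock, with 11 of 14 lower in sign (48.5% of all genes) and 6 of 14 without overlap below mock (7.37% of all genes). In HS against mock it was 0.01, with 6 of 14 lower (38.8%) and 3 without overlap below mock (11.7%), in arrays scaled as above. With 9 arrays the HS median was -0.27, where that of all genes was -0.23, and 10 of 14 were lower, where 75.6% of all genes were. Fdps, farnesyl diphosphate synthase, read 9.31, 10.62 and 10.45 in HS, 10.67, 10.19 and 10.50 in MC+HS, and 10.75, 10.93 and 10.85 in mock brains. Its difference without HS replicate 1 was -0.31 ± 0.14 in HS (limma adjusted p = 0.347) and -0.39 ± 0.12 in MC+HS (limma adjusted p = 0.147). Mvd, the decarboxylase before Idi1, had -0.45 ± 0.12 in HS and -0.29 ± 0.11 in MC+HS (limma adjusted p = 0.0854 and 0.242). Msmo1, a sterol methyl oxidase that acts after Cyp51, had 0.04 ± 0.10 in HS and -0.25 ± 0.09 in MC+HS (limma adjusted p = 0.907 and 0.219). Lbr, a sterol reductase of the nuclear envelope, had 0.35 ± 0.13 in HS (limma adjusted p = 0.228). Ggps1 had 0.25 ± 0.11 in HS (limma adjusted p = 0.298). It makes geranylgeranyl chains, on a branch beside the sterol steps, and is counted among the 14. With 9 arrays the HS differences of Fdps, Mvd and Msmo1 were -0.72 ± 0.35, -0.41 ± 0.15 and -0.34 ± 0.32 in that order (limma adjusted p = 0.549 to 0.646), and those of Lbr and Ggps1 were 0.09 ± 0.24 and 0.06 ± 0.20 (limma adjusted p = 0.856 and 0.891).

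Of 18 genes of sterol sensing and uptake, 15 were measured and 1 rose in each vector group without HS replicate 1, while 0 were called with 9 arrays. Of all probe sets 2.94% were called higher in HS and 2.49% in MC+HS in the 8-array fit, and 0.747% and 0.556% with 9 arrays. Npc2, which carries cholesterol out of lysosomes, read 11.98, 12.60 and 12.89 in HS, 12.78, 12.39 and 12.45 in MC+HS, and 12.05, 12.25 and 11.85 in mock brains. It rose by 0.70 ± 0.15 in HS (limma adjusted p = 0.0265) and differed by 0.49 ± 0.13 in MC+HS (limma adjusted p = 0.0819). Its 9-array differences were 0.44 ± 0.29 and 0.49 ± 0.29 (limma adjusted p = 0.635 and 0.9999). The HS call was lost when HS replicate 2, HS replicate 3, mock replicate 1 or mock replicate 3 was also left out, with limma adjusted p of 0.0546, 0.348, 0.0804 and 0.0818 in that order. Srebf1, which encodes the SREBP of fatty acid synthesis, read 10.03, 10.48 and 10.61 in HS, 10.91, 10.75 and 10.57 in MC+HS, and 10.21, 10.37 and 9.96 in mock brains. It rose by 0.56 ± 0.13 in MC+HS (limma adjusted p = 0.0344) and differed by 0.37 ± 0.14 in HS (limma adjusted p = 0.252). Its 9-array differences were 0.56 ± 0.25 in MC+HS and 0.20 ± 0.25 in HS (limma adjusted p = 0.9999 and 0.707). Its difference between MC+HS and HS was 0.20 ± 0.14 (limma adjusted p = 0.778), and its call held in 2 of 8 cases with 1 more array left out, without MC+HS replicate 3 or without mock replicate 2, with limma adjusted p up to 0.120. Of the 12 fatty acid synthesis genes under SREBP1, all 12 were measured and 0 were called, with Elovl6, a fatty acid elongase, at -0.25 ± 0.09 in MC+HS (limma adjusted p = 0.195) and Thrsp, a lipogenic regulator, at 0.32 ± 0.14 in HS (limma adjusted p = 0.321), both with 8 arrays. With 9 arrays Elovl6 in MC+HS had a standard error of 0.42 and a limma adjusted p of 0.9999, and Thrsp in HS stood at -0.25 ± 0.44 (limma adjusted p = 0.785), so its sign turned with HS replicate 1.

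Among 12 measured of 14 genes of sterol efflux, storage and oxidation, Ch25h rose in both vector groups and in both fits. Ch25h makes an oxysterol that is known to hold SREBP2 back through INSIG and is itself an interferon-responsive gene. It read 9.20, 9.51 and 9.93 in HS, 9.15, 9.60 and 9.27 in MC+HS, and 7.60, 7.93 and 7.29 in mock brains. HS replicate 1 lay below the other HS arrays and above MC+HS replicate 1 here. It lay above all mock arrays, unlike for most members. The rise was 1.94 ± 0.24 in HS and 1.73 ± 0.24 in MC+HS with 9 arrays (limma adjusted p = 0.00940 and 0.0203). With 8 arrays it was 2.11 ± 0.20 and 1.73 ± 0.18 (limma adjusted p = 0.000175 and 0.000363). Leaving out 1 more array kept both calls in that fit. With 9 arrays the HS call was lost without mock replicate 1 or 3 (0.0604 and 0.0564), and the MC+HS call without any 1 of the MC+HS arrays, mock replicate 1 or mock replicate 3 (0.0904 to 0.135).

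Lcat, which esterifies cholesterol on lipoproteins, read 6.77, 10.34 and 10.68 in HS, 10.18, 10.44 and 10.07 in MC+HS, and 9.57, 9.78 and 9.11 in mock brains. It rose in the 8-array fit by 1.02 ± 0.19 in HS and by 0.74 ± 0.17 in MC+HS (limma adjusted p = 0.0129 and 0.0428), and with 9 arrays it was not called, at -0.23 ± 0.86 in HS and 0.74 ± 0.86 in MC+HS (limma adjusted p = 0.903 and 0.9999). The HS call was lost without HS replicate 3 as well (0.214), and the MC+HS call held only without mock replicate 2, with limma adjusted p of 0.0566 to 0.176 in the other 7 cases. Abca1, which exports cholesterol to lipoproteins, had 0.33 ± 0.15 in HS and 0.36 ± 0.13 in MC+HS with 8 arrays (limma adjusted p = 0.357 and 0.231), and -0.77 ± 0.76 in HS with 9 (limma adjusted p = 0.655). Apoe, the main apolipoprotein of the brain, had -0.13 ± 0.10 and -0.12 ± 0.09 with 8 arrays (limma adjusted p = 0.619 and 0.616). Apoe read 8.12 on HS replicate 1 and 12.86 to 13.17 on the other 8 arrays, which put its 9-array difference in HS at -1.74 ± 1.09.

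**Figure D3:**
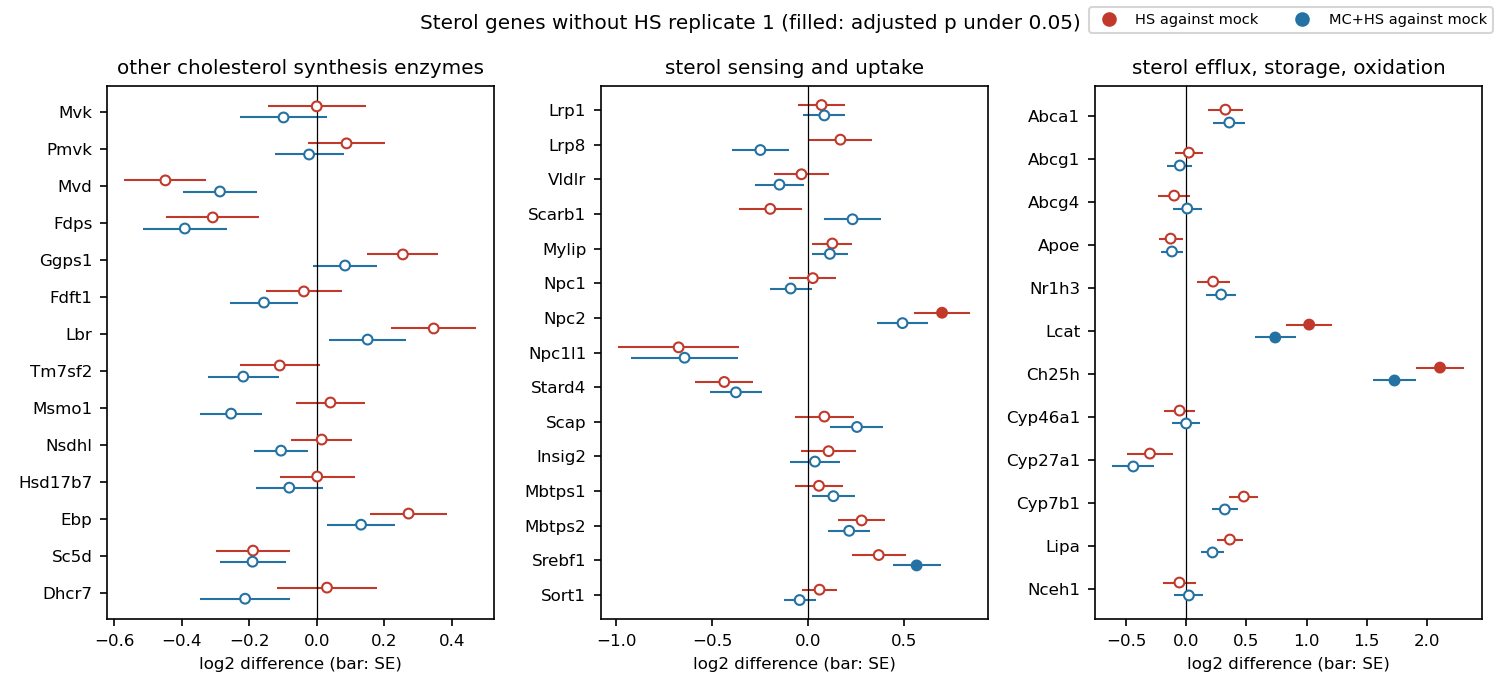
Log2 difference from mock on the x axis, with standard errors as bars, for other cholesterol enzymes, sensing and uptake genes, and efflux, storage and oxidation genes, from the fit without HS replicate 1; red is HS, blue is MC+HS, and filled points have an adjusted p under 0.05. Ch25h and Lcat are filled in both groups, Npc2 in HS and Srebf1 in MC+HS, and no synthesis enzyme is filled. Of all probe sets, 3.29% in HS and 3.32% in MC+HS had an adjusted p under 0.05 in this fit.

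Markers of the cells that make brain cholesterol were set beside the members on each array, as the mean log2 level of a list minus its mean in mock. The mean of the 7 members stood at -0.64, -0.12 and -0.09 in HS, -0.07, -0.18 and -0.24 in MC+HS, and 0.15, 0.04 and -0.19 in mock brains, so mock replicate 3 lay among the vector arrays. Oligodendrocyte markers, 10 of 11 listed, stood at -1.24, 0.14 and 0.26 in HS, 0.29, 0.04 and -0.16 in MC+HS, and 0.25, 0.04 and -0.29 in mock brains. In every group the array with the highest oligodendrocyte level also had the highest 7-gene mean, and the array with the lowest had the lowest. Over the 8 arrays without HS replicate 1, deviations from the group means of the 7-gene mean and of the oligodendrocyte markers had r = 0.963, as a description across arrays that share their scaling. The same r was 0.623 for astrocyte and 0.468 for neuronal markers. By probe set, r with the oligodendrocyte markers was 0.982 for Idi1 1451122_at, 0.980 for Srebf2 1452174_at and 0.929 for Insig1. For Hmgcs1 it was 0.756 at 1433443_a_at, which stands for the gene in the 7-gene mean, 0.153 at 1433446_at, -0.249 at 1433444_at and -0.760 at 1433445_x_at. With the oligodendrocyte mean as a covariate, chosen after seeing the data, Hmgcs1 1433446_at had a log2 difference of -0.61 in MC+HS against mock (limma adjusted p = 0.00340, 8 arrays), and all 4 Hmgcs1 probe sets were called, with 1395 of all probe sets called against 937 without the covariate. In HS against mock the covariate added 1 call, Lss 1420013_s_at at -0.50 (limma adjusted p = 0.0475), where 980 of all probe sets were called against 930 without it. The covariate was read from the same arrays and shares their scaling. The values with it are a description and cannot show what part cell content had.

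The summed scaled signal of the oligodendrocyte markers was 26744, 43598 and 46685 in HS, 37598 to 49733 in MC+HS, and 34325 to 45383 in mock brains. Sums in HS are given for replicates 1, 2 and 3 in that order, and replicate 1 had the lowest each time. In the 8-array fit limma called 1 of the 10 higher in HS, the tight junction gene Cldn11, and 0 in MC+HS. Of all probe sets 2.94% were called higher in HS and 2.49% in MC+HS in that fit, and 0.354% and 0.828% lower. Astrocyte markers summed to 11494, 50689 and 53414 in HS, 46349 to 54752 in MC+HS, and 47853 to 48998 in mock brains. In the 8-array fit 3 of 10 rose in HS (Aqp4, Aldh1l1 and Sox9) and 1 in MC+HS (Aldh1l1). Of the reactive astrocyte markers 8 of 8 rose in each vector group, Lcn2 by 4.13 in HS and 3.88 in MC+HS. Neuronal markers summed to 35857, 55869 and 62247 in HS, 55314 to 68121 in MC+HS, and 59270 to 62964 in mock brains, with 0 of 12 called. Microglia markers had 3 of 7 called lower in each vector group, P2ry12, Siglech and Gpr34, while Tmem119 stood at 0.35 in HS and 0.22 in MC+HS and Aif1 at 0.83 and 0.72, none of them called. Infiltrating myeloid markers had 4 of 8 called higher in each, Chil3, S100a8, S100a9 and Plac8. Their sums were 3014, 7192 and 7177 in HS, 5106 to 5830 in MC+HS, and 1608 to 3294 in mock brains. Endothelial and pericyte markers had 2 of 8 called higher in each, Cldn5 and Cdh5, and oligodendrocyte precursor markers 0 of 6. Interferon-stimulated genes stood at 1.69, 3.50 and 3.77 in HS, 3.33, 3.33 and 3.20 in MC+HS, and -0.66, 1.15 and -0.49 in mock brains, with 10 of 10 called higher in each vector group, and mock replicate 2 lay above the other mock arrays. With 9 arrays fewer were called, in HS 3 and in MC+HS 2 of the 10 interferon-stimulated genes, 2 and 0 of the 8 reactive astrocyte markers, 3 and 2 of the 8 myeloid markers and, lower, 1 and 2 of the 7 microglia markers. Of all probe sets 0.747% and 0.556% were then called higher, and 0.0283% and 0.0248% lower. In that fit 0 astrocyte, oligodendrocyte, precursor, neuronal or endothelial markers were called, and Lcn2 stood at 2.54 ± 1.21 in HS and 3.88 ± 1.21 in MC+HS (limma adjusted p = 0.635 and 0.489). The fit with the oligodendrocyte covariate cannot decide the part of these cell types in the changes of Hmgcs1, Ch25h, Lcat, Npc2 and Srebf1. That part, or the part of the state of mock replicate 2, was not otherwise tested.

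**Figure D4:**
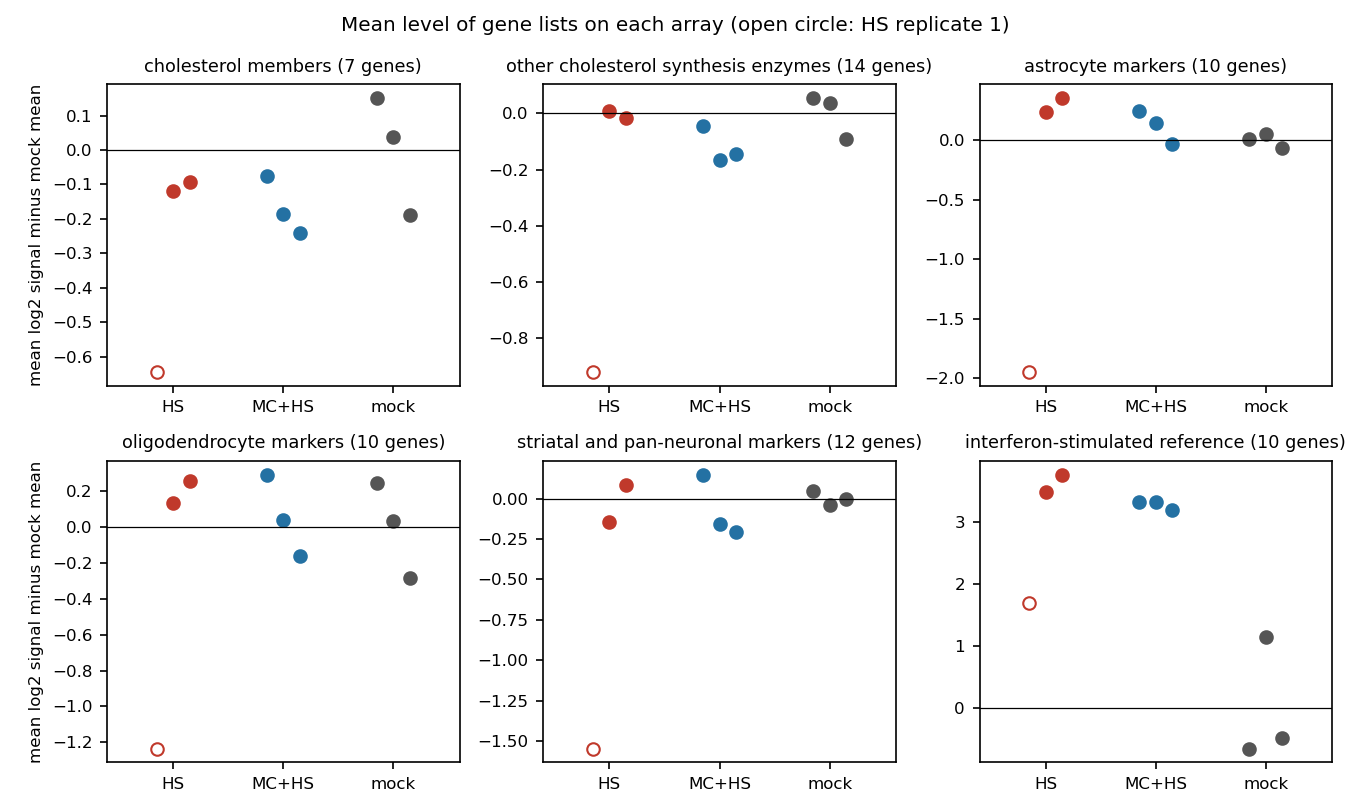
Mean log2 signal of 6 gene lists on each array minus the mock mean, on the y axis, for HS, MC+HS and mock brains; points are mice and the open circle is HS replicate 1. The 7 members and the oligodendrocyte markers rank the arrays of MC+HS and of mock in the same order, and interferon-stimulated genes are high on all vector arrays.

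Members did not all run together. Over the 8 arrays, with 1 probe set a gene, r was 0.929 between Hmgcs1 and Sqle and 0.938 between Idi1 and Insig1. It was -0.084 between Hmgcs1 and Cyp51 and 0.330 between Hmgcs1 and Srebf2. Hmgcs1 was read there at 1433443_a_at, which was not called in either main fit. The 10 genes outside the 7 whose levels were most like the 7-gene mean over the 8 arrays, of 13324 ranked, were Mplkip, Garem1, Pllp, Tatdn3, Ilf2, Suclg1, Ppp2r2d, Immt, Dkkl1 and Atrnl1, with r of 0.966 to 0.982. With 9 arrays r was 0.994 for Garem1, 0.993 for Tatdn3, 0.978 for Pllp and 0.156 for Mplkip. It was 0.669 for Dkkl1 to 0.916 for Ppp2r2d among the rest of the 10. With 8 arrays and many genes such values are a description only.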

How the data were processed

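Per the labels' protocols, RNA extracted with Trizol from 9 mouse brains was labelled with biotin and hybridized to 1 array each. Each array has 1 deposited intensity per probe set, linear in scale. The submitters' processing notes name GCOS 1.4.0.036; the sources used here do not state how the authors summarised and scaled intensities. Intensities became log2(signal + 16), which understates changes of dim genes, and arrays were shifted so that their medians equalled the median of all 9. Control probe sets (64) and those not above the 40th percentile of their array on 3 arrays were left out, which left 28257 of 45101. Platform annotation named the genes. limma 3.58.1 in R 4.3.3 (lmFit, eBayes with an intensity trend) fitted all arrays together, with Benjamini-Hochberg adjustment over all probe sets, two-sided, called under 0.05, with and without HS replicate 1; the filter and scaling came from all 9 arrays in both. Errors after ± are standard errors. The scripts were tested on simulated data. The number of arrays limits the precision.

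Some listed genes are not reported here. The 7 genes, the gene lists and the tests were chosen with earlier results of these data known. All probe sets of the 7 genes are named, and of each other list those called in either fit, or otherwise up to 3 with the smallest p; Abca1, Apoe and Ch25h are named whatever their values. In the text a gene of another list stands for its probe set with the highest mean. Alternatives were a pseudocount of 1 or of 64, a filter at the 60th percentile or none, other scalings, no trend, a robust prior, array weights, the replicate number as a block, only the arrays compared, and leaving out each array.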

Additional observations from a re-analysis of the deposited data

How the results depend on the processing

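With all 9 arrays, 0 member probe sets were called in each comparison. Array quality weights gave 7 in HS against mock, 5 in MC+HS against mock and 4 in MC+HS against HS, of 14, where 27.5%, 7.59% and 23.1% of all probe sets were called with those weights. With those weights the MC+HS minus HS difference was turned for Sqle, to -0.33, and for Hmgcs1 1433446_at, to -0.31, and the HS minus mock difference of Lcat was turned to 0.75. With 1 array left out, Lcat ran between -0.93 and 1.02 (the highest without HS replicate 1). A fit of only the arrays compared gave 2 in MC+HS against mock (2.57% of all probe sets). Leaving out 1 array gave 0 to 0 in HS against mock, 0 to 3 in MC+HS against mock and 0 to 0 in MC+HS against HS. Without HS replicate 1, HS against mock had 0 member probe sets called (3.29% of all), and 2 after quantile normalization (3.63%), 4 with array weights (4.99%), 1 with the oligodendrocyte marker mean as a covariate (3.47%), and 0 to 2 with 1 more array left out. MC+HS against mock had 3 (3.32% of all), and 0 without scaling between arrays (2.63%), 1 without the intensity trend (2.81%), 5 with array weights (5.17%), and 1 to 4 with 1 more array left out. MC+HS against HS had 0 under every alternative run. The cause was not tested. In that fit Hmgcs1 1433446_at was below mock in MC+HS in 19 of 19 alternatives and called in 18, at log2 differences of -0.67 to -0.54, with an adjusted p of 0.258 without scaling. Over all probe sets, the 9-array counts ran from 15 to 7776 for HS against mock around 219, from 10 to 2146 for MC+HS against mock around 164, and from 0 to 6536 for MC+HS against HS around 0, the highest of each with array weights. The 8-array counts ran from 380 to 4144 around 930, 574 to 1460 around 937, and 1 to 535 around 1 in the same order. The replicate number as a block gave 0 member probe sets in each comparison with 9 arrays, and 0, 2 and 0 without HS replicate 1 in the order above, where Hmgcs1 1433445_x_at reached an adjusted p of 0.0531. Deviations of same-numbered arrays correlated between -0.17 and 0.29, and those of other arrays between -0.32 and 0.16. The highest values were 0.29 for MC+HS and mock replicate 3 and 0.26 for their replicate 1, against -0.02 for their replicate 2. The numbers were not taken to pair mice in the main fits, and these values do not settle it.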
